A study of Mus musculus with 60 samples.

Results

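The genes of glycolysis, pyruvate and lactate metabolism were followed here through mouse preimplantation development and in the donor cells used for nuclear transfer (NT). Members were taken as the entries of the expression table whose Ensembl identifier maps to 1 of 37 chosen symbols, current or older, and all 37 were found among the 27238 genes of the table. The matching used no expression values, but the 37 symbols were chosen with earlier results of these data known. By role, 2 members transport glucose, 9 act in the upper steps of glycolysis, 4 encode bifunctional regulators of phosphofructokinase, 7 act in the lower steps, 2 encode lactate dehydrogenase subunits, 4 belong to the pyruvate dehydrogenase complex, 4 are the kinases that inhibit it, 2 form the mitochondrial pyruvate carrier and 3 carry lactate and pyruvate across the cell membrane.

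The study sequenced single embryos of 3 types at 6 stages from the 1-cell embryo through the 2-cell, 4-cell and 8-cell embryo and the morula to the blastula, together with both kinds of donor cell, with 3 libraries in each of 20 groups and 60 libraries in all. In vivo embryos came from superovulated C57BL/6 females mated with DBA2 males and developed in the mother until they were collected. NTC embryos received the nucleus of a cumulus cell (CC), one of the somatic cells that surround the ovulated egg, and NTM embryos that of a mouse embryonic fibroblast (MEF). Every group had the BDF1 background, the cross of C57BL/6 and DBA2. Recipient eggs were enucleated metaphase oocytes of BDF1 females aged 8 to 10 weeks, CCs came from superovulated BDF1 females, and MEFs came from BDF1 fetuses and were starved of serum before use. NT embryos were activated with strontium chloride and cytochalasin B, exposed to the histone deacetylase inhibitor Scriptaid, and cultured in G1 medium and, after the 4-cell stage, G2 medium. Nuclear transfer, activation, Scriptaid and culture were thus shared by all NT groups and absent from all in vivo groups. The egg also differed, coming from C57BL/6 females in vivo and BDF1 females in NT. The parts of all these in a difference between the 2 kinds of embryo cannot be told apart. Embryos were picked by morphology, and the labels describe collection over several independent experiments without saying which embryo came from which.

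Glycolysis splits glucose into pyruvate and yields a little ATP. Glucose enters through facilitative transporters, is trapped by hexokinase, committed by phosphofructokinase and oxidised by glyceraldehyde-3-phosphate dehydrogenase, and pyruvate kinase makes pyruvate. Pyruvate is either exchanged with lactate by lactate dehydrogenase or carried into mitochondria and oxidised by the pyruvate dehydrogenase complex. The early mouse embryo is known to depend on pyruvate and lactate and to use little glucose until compaction, after which glucose uptake climbs toward the blastocyst, and this sequence gives the 37 genes their interest in this tissue.

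Levels are given in RPKM, read counts scaled by transcript length and by library size, which can be set side by side between genes because they are per length. Tests used limma on log2(RPKM + 1) across all genes with a mean of at least 0.5 RPKM in the libraries compared. A gene was called when its Benjamini-Hochberg adjusted p was under 0.05 and its log2 difference was at least 1 in size. Shares given for all genes are of genes called by this rule. The share of all genes at an unadjusted p under 0.05 was not counted, so member counts at that limit are a description only. A log2 difference is the mean of the first-named group minus that of the second on the log2(RPKM + 1) scale, which compresses the change of low genes and is not a fold against a group listed at 0. RPKM is a share of the library, so in these bulk samples fewer cells of a type and less RNA per cell cannot be told apart. Gapdh, Pgam1, Eno1, Ldha, Pgk1, Tpi1, Aldoa and Pkm have near-identical copies elsewhere in the mouse genome, and how reads that fit a copy were counted is not given in the sources used here, so their levels are uncertain.

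Depth ranged from 5294167 to 47830132 reads on genes per library, and 3 reads on a transcript of 2000 nt corresponded to 0.0314 to 0.283 RPKM. Genes above 0 numbered 7808, 7804 and 7730 in in vivo blastula libraries, 11771 to 13000 in NTC and 11498 to 13568 in NTM blastulae. Values at 0 in in vivo blastulae, and comparisons with them, carry that limit. The mitochondrial share of the reads moved with the groups: it was 5.68 to 8.87% in the in vivo 4-cell libraries, 32.1 to 45% in the in vivo 8-cell libraries, 31.6 to 34.7% in NTC and 29.6 to 40.4% in NTM 4-cell libraries. Marker lists were read as summed RPKM. MEF markers summed to 8982 to 11837 in MEFs with all 13 above 1 RPKM, and to at most 22.4 in any embryo library. Cumulus markers summed to 523 to 1212 in CCs, where the hyaluronan synthase gene Has2 was listed at 0, and to 499 to 1221 in MEFs. Of these 12 genes, 5 were above 1 RPKM in all 3 CC libraries and 3 in all 3 MEF libraries. The sum did not separate CCs from MEFs. Oocyte and maternal markers summed to 2533 to 5175 in in vivo 1-cell embryos and 0 to 0.117 in in vivo blastulae, 2-cell activation markers to 139 to 1449 in in vivo 2-cell embryos, and blastula lineage markers to 538 to 1170.4 in in vivo blastulae.

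The promoters of both lactate dehydrogenase genes and of the glucose transporter Slc2a1 are shown for the following reasons. The lactate dehydrogenase genes had opposite patterns between 1-cell embryos and donor cells, and Slc2a1 fell at the 4-cell stage in every embryo type. Slc2a3 and Slc16a7 had no entry in the RefSeq promoter table used here. The letters ACGTG, the core of the element through which hypoxia-inducible factors bind and also part of the palindrome CACGTG read by Myc, are in capitals on either strand. Each line holds the 250 bases before a start site in RefSeq (build GRCm38.p6), 5′ to 3′ on the gene's strand. They are chr6:142507958-142508207, minus strand, for Ldhb, chr7:46845554-46845803, plus strand, for the first of 2 Ldha start sites, and chr4:119108495-119108744, plus strand, for Slc2a1.
Ldhb: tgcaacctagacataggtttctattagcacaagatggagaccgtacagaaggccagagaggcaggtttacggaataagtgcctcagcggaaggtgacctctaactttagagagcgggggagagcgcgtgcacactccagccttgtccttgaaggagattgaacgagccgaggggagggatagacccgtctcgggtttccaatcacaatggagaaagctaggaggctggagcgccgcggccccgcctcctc
Ldha: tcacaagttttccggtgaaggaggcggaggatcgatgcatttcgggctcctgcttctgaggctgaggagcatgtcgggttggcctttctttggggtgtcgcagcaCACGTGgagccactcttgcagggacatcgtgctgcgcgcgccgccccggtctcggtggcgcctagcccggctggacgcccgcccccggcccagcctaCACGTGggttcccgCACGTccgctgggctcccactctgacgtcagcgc
Slc2a1: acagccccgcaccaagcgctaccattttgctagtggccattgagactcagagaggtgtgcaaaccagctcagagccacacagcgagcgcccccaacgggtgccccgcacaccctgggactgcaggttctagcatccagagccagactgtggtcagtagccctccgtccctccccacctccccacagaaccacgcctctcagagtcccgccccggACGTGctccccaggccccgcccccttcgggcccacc
The Ldha stretch held the letters in 3 places, that of Slc2a1 in 1 and that of Ldhb in 0. The window of the second Ldha start site, not printed, held them in 0 places. In windows from 250 bases before to 50 bases after a start site, ACGTG stood in 22 of the 55 start sites of the 35 members with an entry (40%) and in 6447 of all 32851 start sites (19.6%). The longer CACGTG, which overlaps it, stood in 6 of 55 (10.9%) against 7.15% of all, and GGGCGG, the GC box read by Sp1, in 29 of 55 (52.7%) against 35.7%. A match is a description of these letters and not a binding site.

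**Figure D1:**
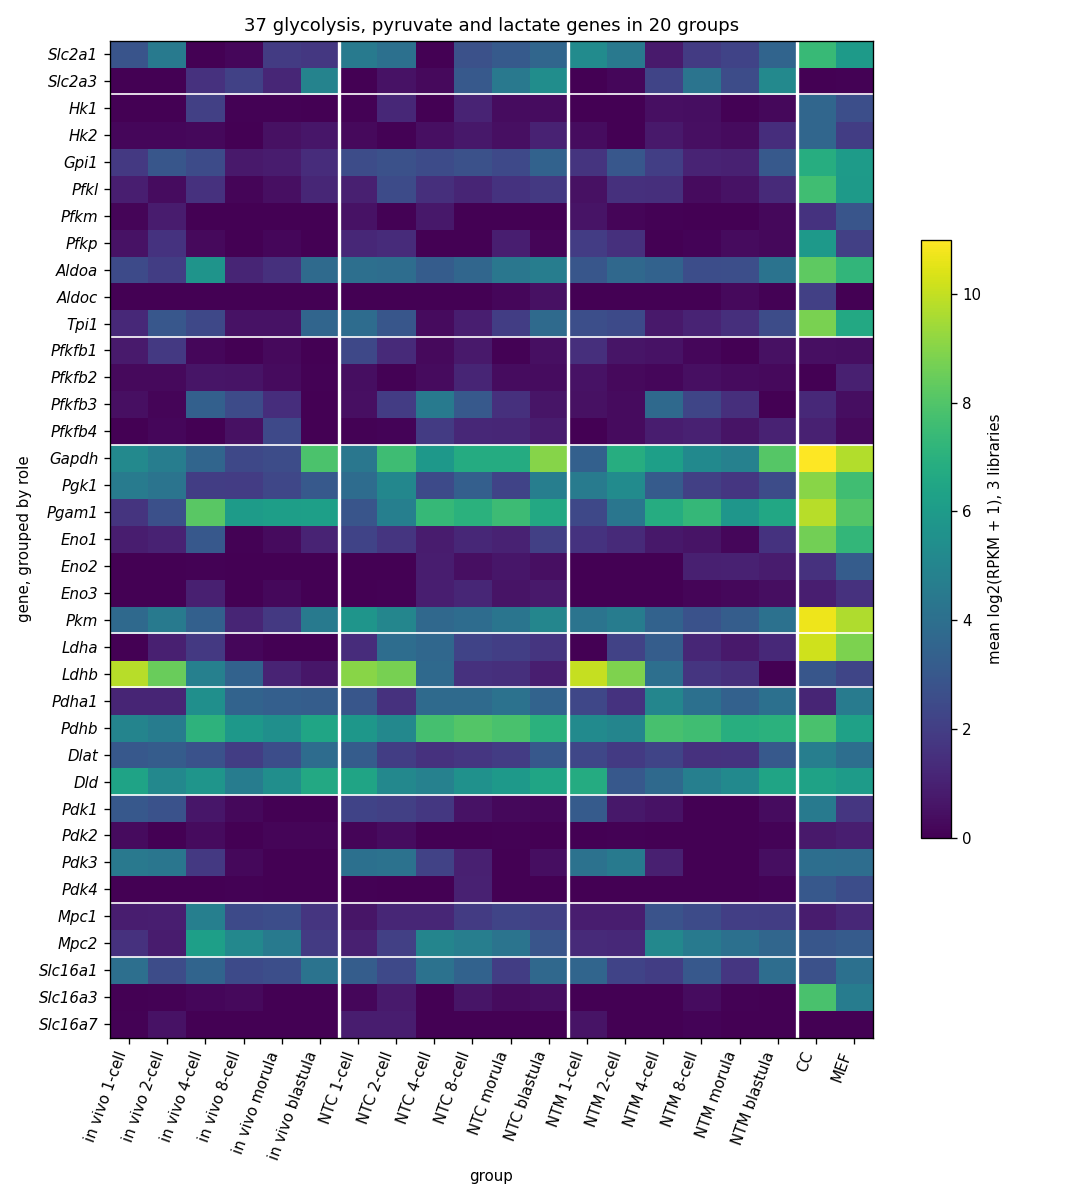
Mean log2(RPKM + 1) of 3 libraries for each of the 37 genes (listed down, grouped by role) in each of the 20 groups (across), with white lines between embryo types and donor cells. CC and MEF are bright for the glycolytic enzymes, and Ldhb is bright in 1-cell and 2-cell embryos. Among the embryo groups Pgam1 is brightest at the 4-cell stage in vivo, and Slc2a3 and Gapdh are bright in blastulae.

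Of the 37 members, 10 were above 0 in all 54 embryo libraries, 22 had an embryo median of at least 1 RPKM and 8 had an embryo median of 0. For 10 of the 37 members the lowest donor library exceeded the highest embryo library. The share of all genes that did so was not counted, so this number is a description only. The 18 genes from glucose transport to pyruvate kinase summed to 6117, 8562 and 6212 RPKM in the 3 CC libraries and 2539.8, 2457 and 3438 in the 3 MEF libraries. In vivo 1-cell embryos had a sum of 137, 94.1 and 102, and in vivo blastulae 246, 561 and 662. Every embryo library of those groups lay below every donor library.

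The lactate dehydrogenase genes had opposite patterns between 1-cell embryos and donor cells. Ldhb encodes the heart-type subunit and Ldha the muscle-type subunit. Ldhb was the most abundant of the 37 members at the 1-cell stage, with 1037, 813 and 824 RPKM in vivo, 652, 488 and 464 in NTC and 1198, 850.4 and 1146 in NTM. In vivo it stood at 455, 349 and 286 RPKM at the 2-cell and 43.8, 22.8 and 18.1 at the 4-cell stage. These groups did not overlap. In vivo blastulae held 2.88, 0.0744 and 0 RPKM, NTC blastulae 0.145, 0.1 and 4.55 and NTM blastulae 0, 0.0656 and 0. Ldhb therefore fell in every embryo type between the 1-cell and the blastula stage, by a log2 difference of -9.11, SE 0.66, adjusted p = 0.000339 in vivo, -8.11, SE 0.61, adjusted p = 2.81e-05 in NTC and -10.01, SE 0.30, adjusted p = 1.14e-06 in NTM. The steepest called step was from the 2-cell to the 4-cell stage, with -3.71 in vivo, -4.97 in NTC and -4.84 in NTM. The fall was already called at the 2-cell stage in NTM embryos (-1.20, SE 0.26, adjusted p = 0.0256), where the whole table held 6.68% called lower. Donor cells had little Ldhb, with 0.29, 39 and 7.75 RPKM in CCs and 5.35, 2.97 and 3.8 in MEFs.

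Ldha was the reverse in donor cells and 1-cell embryos, but in vivo it showed no lasting rise as Ldhb fell. CCs held 1129, 1663 and 837 RPKM and MEFs 438, 406 and 514. In vivo 1-cell embryos and in vivo blastulae were listed at 0 in all 3 libraries, and the 2-cell and 4-cell in vivo libraries held 0.432, 0 and 4.38 and 3.26, 3.47 and 1.38 RPKM. NTC embryos held 5.97, 0 and 1.52 RPKM at the 1-cell, 10.5, 18.7 and 14.4 at the 2-cell and 9.7, 8.97 and 18.2 at the 4-cell stage. The NTC 2-cell and 4-cell libraries were all above the highest in vivo library of the same stage. NTM embryos were uneven, with 9.02, 6.9 and 0.162 RPKM at the 2-cell and 15.5, 0 and 50.2 at the 4-cell stage, so that 1 library of each group lay at or near 0. Ldha rose in NTC embryos from the 1-cell to the 2-cell stage (2.54, SE 0.66, adjusted p = 0.0356). Between the 1-cell and the blastula stage limma called a rise in NTM (1.22, SE 0.38, adjusted p = 0.0251). It called none in NTC (0.30, SE 1.04, adjusted p = 0.808).

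Of the glucose transporter transcripts, Slc2a1 fell at the 4-cell stage and Slc2a3 rose between the 1-cell and the blastula stage. Slc2a1 encodes GLUT1, the widespread transporter, and Slc2a3 encodes GLUT3, a transporter of higher affinity. Slc2a1 was present in 2-cell embryos, at 30.9, 14.5 and 23.4 RPKM in vivo, 16.4, 13.6 and 17.6 in NTC and 35.7, 28.9 and 8.73 in NTM libraries. At the 4-cell stage it was listed at 0 in all 3 in vivo libraries, at 0, 0 and 0.0556 in NTC and at 4.13, 0.0292 and 0 in NTM libraries. The 2-cell and 4-cell groups did not overlap in any embryo type, and Slc2a1 fell in each, with -4.52, SE 0.39, adjusted p = 0.000114 in vivo, -4.04, SE 0.44, adjusted p = 0.000378 in NTC and -3.66, SE 0.88, adjusted p = 0.0161 in NTM. By the blastula it stood at 0.127, 4.27 and 6.09 RPKM in vivo, 6.42, 8.99 and 24.3 in NTC and 22.9, 18.9 and 2.28 in NTM, where the NTC libraries lay just above the in vivo ones and the NTM libraries overlapped both (1.83, SE 0.91, adjusted p = 0.232 for NTC).

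Slc2a3 was listed at 0 in every 1-cell library of all 3 embryo types. In vivo it reached 2.48, 2.35 and 1.18 RPKM at the 4-cell stage and 47.4, 20.8 and 24.5 in the blastula, and NTC and NTM blastulae held 62.9, 37.2 and 29.5 and 54.7, 63.2 and 12.1. Slc2a3 thus rose between the 1-cell and the blastula stage in each type, by 4.91, SE 0.52, adjusted p = 0.000842 in vivo, 5.39, SE 0.31, adjusted p = 8.61e-06 in NTC and 5.17, SE 0.60, adjusted p = 0.000262 in NTM. Between those stages the types were spaced differently. Morulae held 0.406, 0.913 and 3.4 RPKM in vivo, 20.5, 19.3 and 23 in NTC and 17.6, 4.43 and 0.984 in NTM libraries, so that the NTC libraries lay above the in vivo ones and the NTM libraries overlapped the in vivo ones, and the NTC difference did not pass (3.26, SE 0.56, adjusted p = 0.0781). Donor cells held little or none, with 0 in all 3 CC libraries and 0, 0.149 and 0 RPKM in MEFs, whereas Slc2a1 stood at 119, 192 and 213 in CCs and 83.9, 78.5 and 36.7 in MEFs.

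**Figure D2:**
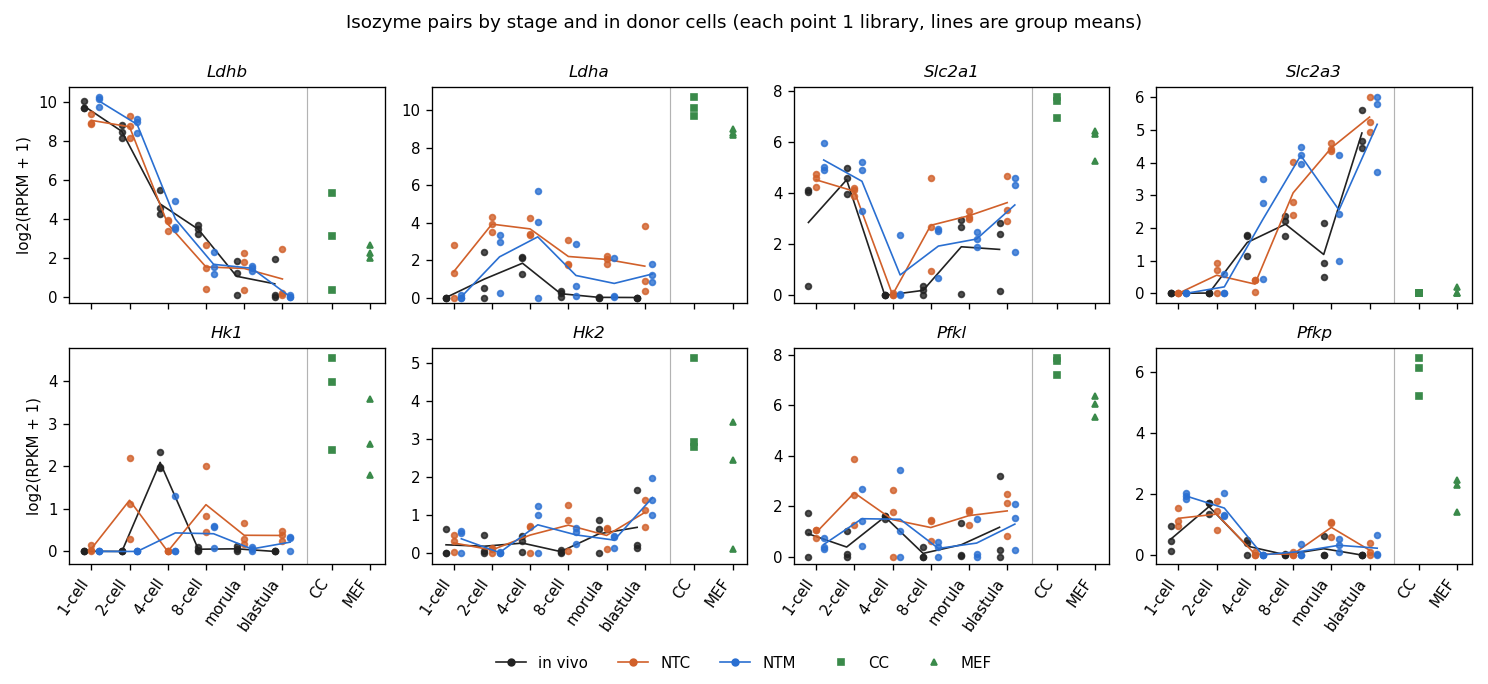
log2(RPKM + 1) of 8 genes, the 4 isozyme pairs, by stage on the horizontal axis, each point 1 library, lines joining the group means of in vivo (black), NTC (orange) and NTM (blue) embryos, with CC squares and MEF triangles at the right. Ldhb descends from the 1-cell stage, where in vivo libraries hold 1037, 813 and 824 RPKM, Slc2a3 ascends to the blastula, and Hk1 is raised only at the in vivo 4-cell stage among the in vivo groups.

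Hexokinase and phosphofructokinase genes were low in embryos. Hk1, the housekeeping hexokinase, had a single peak in vivo, at 2.87, 2.94 and 4.09 RPKM in the 4-cell libraries, and did not exceed 0.0943 RPKM in any other in vivo library. It rose there from the 2-cell stage, where all 3 libraries were listed at 0 (2.09, SE 0.34, adjusted p = 0.00182), and fell by the 8-cell stage (-2.04, SE 0.35, adjusted p = 0.00273). NTC 4-cell embryos were listed at 0 in all 3 libraries and NTM 4-cell embryos at 0.00674, 0 and 1.46. In NTC embryos Hk1 stood at 1.17, 3.6 and 0.221 RPKM at the 2-cell and 0.793, 0.371 and 3.0 at the 8-cell stage. Hk2, the insulin-responsive hexokinase, never exceeded 2.89 RPKM in an embryo and stood at 5.94, 33.9 and 6.59 in CCs and 0.0676, 4.43 and 9.98 in MEFs. Its one call between embryo groups was a rise from the 1-cell stage to the NTM blastula at 2.89, 1.63 and 1.0 RPKM (1.08, SE 0.39, adjusted p = 0.0447).

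Of the phosphofructokinase subunits, Pfkl was higher in every donor library than in any embryo library. For Pfkp this held for all CC but not all MEF libraries, and for Pfkm for all MEF but not all CC libraries. Pfkl, the liver-type subunit, stood at 216, 231 and 146 RPKM in CCs and 45.8, 65.9 and 80.8 in MEFs against 2.08, 2.08 and 1.81 in in vivo 4-cell embryos and 13.8, 1.41 and 4.38 in NTC 2-cell embryos. Pfkp, the platelet-type subunit, stood at 86.6, 69 and 35.8 in CCs and only 3.92, 4.52 and 1.67 in MEFs. In vivo 2-cell embryos held 1.54, 2.24 and 2.29 RPKM of Pfkp and in vivo 4-cell embryos 0.308, 0.00714 and 0.398. It fell there (-1.29, SE 0.36, adjusted p = 0.0192) while Pfkl rose (1.20, SE 0.41, adjusted p = 0.0429). Pfkm, the muscle-type subunit, exceeded 1 RPKM in 4 embryo libraries and was listed at 0 in all in vivo libraries from the 4-cell stage on.

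Among the regulators that make or remove fructose 2,6-bisphosphate, the strongest activator of phosphofructokinase, Pfkfb3 rose at the 4-cell stage. It held 0.298, 0.019 and 0 RPKM at the in vivo 2-cell stage, 11, 10.7 and 6.9 at the 4-cell stage and 0.0253, 0.0309 and 0.0115 in the blastula. NTC 4-cell embryos held 34.2, 20.2 and 15.7 and NTM 4-cell embryos 9.77, 10.8 and 17.8. It rose from the 2-cell to the 4-cell stage in all 3 types (3.24 in vivo, 2.59 in NTC and 3.44 in NTM). Pfkfb1, the liver-type form, fell at that step in vivo (-1.63), from 2.79, 0.842 and 5.44 to 0, 0 and 0.519 RPKM. Pfkfb4 was listed at 0 in in vivo 4-cell embryos and stood at 5.18, 3.12 and 1.04 RPKM in NTC and 0, 0 and 5.11 in NTM 4-cell embryos. Its in vivo peak came later, at 1.69, 9.24 and 4.77 RPKM in morulae. Pfkfb2 was called in no comparison.

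Aldolase A, which cleaves fructose 1,6-bisphosphate, had a 4-cell peak in vivo. Aldoa stood at 9.36, 0.689 and 2.52 RPKM at the 2-cell, 42.3, 81.2 and 36.5 at the 4-cell and 1.77, 0.99 and 1.0 at the 8-cell stage. It rose and then fell, with 3.69, SE 0.70, adjusted p = 0.00361 and -4.52, SE 0.42, adjusted p = 0.000169. NTC embryos went from 12.3, 11.6 and 20.8 to 2.97, 15.4 and 11.1 RPKM and NTM embryos from 10.7, 13.8 and 12 to 13.1, 6.72 and 11.6, with no such peak in the values. Triosephosphate isomerase, Tpi1, was at 3.81, 5.12 and 3.85 RPKM in vivo, 0.266, 0.215 and 0.283 in NTC and 3.97, 0 and 0 in NTM 4-cell embryos, and at 12, 11.1 and 10.4, 11.5, 12.8 and 15.2 and 10.7, 2.51 and 4.06 in the 3 kinds of blastula. It fell in NTC embryos from the 2-cell to the 4-cell stage (-2.61, SE 0.47, adjusted p = 0.00328). Glucose-6-phosphate isomerase, Gpi1, stayed between 0 and 21.9 RPKM in embryos. Aldoc, the brain-type aldolase, was listed at 0 in all 18 in vivo libraries.

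In the lower steps, Pgam1 and Gapdh followed different courses in vivo. In 4-cell embryos Pgam1 held 194, 404 and 299 RPKM, where all 18 genes from glucose transport to pyruvate kinase summed to 285, 546 and 377. Gapdh, glyceraldehyde-3-phosphate dehydrogenase, held 90.3, 23.7 and 19.5 RPKM in in vivo 1-cell embryos, 11.8, 11.3 and 10.1 at the 4-cell stage, 0.368, 7.94 and 15.1 in morulae and 83.6, 347 and 433 in blastulae. Its in vivo morula to blastula difference was 5.33, SE 1.06, adjusted p = 0.0584 and did not pass. NTC morulae held 132, 122 and 77.7 RPKM and NTC blastulae 424, 577 and 556, and NTM morulae 40.8, 11.5 and 44.2 and NTM blastulae 452, 252 and 181. Gapdh rose at this last step in NTC (2.24, SE 0.30, adjusted p = 0.00595) and in NTM embryos (3.26, SE 0.54, adjusted p = 0.0143), and the NTM call was lost without NTM blastula replicate 1 or 2. It had also risen at the first cleavage in NTC, from 23.5, 13.1 and 23.6 to 245, 147 and 189.8 RPKM, and in NTM, from 10.1, 10.4 and 7.68 to 161, 60.0 and 149.9. The log2 differences were 3.22, SE 0.31, adjusted p = 0.000612 and 3.47, SE 0.46, adjusted p = 0.00363. In vivo the same step went from the 1-cell values above to 32.2, 21.8 and 20.4 RPKM, groups that overlapped.

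Phosphoglycerate mutase, Pgam1, rose at the 4-cell stage in every embryo type. In vivo it moved from 3.7, 3.18 and 12 to 194, 404 and 299 RPKM, in NTC from 22.2, 20.6 and 37.6 to 147, 145 and 205 and in NTM embryos from 42.2, 12.8 and 11.6 to 115, 47.4 and 255. It rose in each type (5.50, SE 0.54, adjusted p = 0.000182 in vivo, 2.62, SE 0.38, adjusted p = 0.00116 in NTC and 2.53, SE 0.78, adjusted p = 0.0428 in NTM). Pgk1, phosphoglycerate kinase, moved the other way in vivo, from 11.9, 25.4 and 18.6 to 4.07, 5.23 and 1.06 RPKM (-2.22, SE 0.53, adjusted p = 0.0104). Eno1, the ubiquitous enolase, was low but peaked in vivo at 7.42, 8.19 and 5.73 RPKM at the 4-cell stage, between 0.819, 3.17 and 0.157 and 0, 0.0538 and 0.0641 on either side. It rose into that stage (1.96) and fell out of it (-2.95). Eno2 and Eno3, the neuronal and muscle enolases, had embryo medians of 0 and no call between embryo groups.

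Pyruvate kinase, Pkm, stood at 1442, 2234 and 1393 RPKM in CCs and 733, 731 and 1052 in MEFs. In vivo it held 36.8, 38.7 and 6.71 RPKM at the 2-cell, 5.3, 16.4 and 9.12 at the 4-cell, 0.645, 1.56 and 1.46 at the 8-cell and 20.6, 28.8 and 17.1 at the blastula stage. The 8-cell libraries were the lowest of these and did not overlap the 4-cell ones (limma, -2.25, SE 0.48, adjusted p = 0.00722). They did overlap the in vivo morula libraries, at 0.222, 2.0 and 11.4 RPKM. At the 2-cell, 4-cell, 8-cell and blastula stages NTC libraries held 34.3, 23.7 and 39.5, then 6.33, 16 and 17.3, 30.1, 2.92 and 25.4 and 29.1, 31.6 and 34.7 RPKM. NTM libraries held 5.9, 3.23 and 43.2 RPKM at the 4-cell and 31.3, 16.4 and 8.09 at the blastula stage.

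The genes through which pyruvate enters mitochondria rose at the 4-cell stage, with an exception in NTC. MPC1 and MPC2 form the carrier of the inner membrane. Mpc1 moved in vivo from 0.542, 1.07 and 1.1 to 32.1, 22.6 and 23.8 RPKM and then stood at 3.39, 4.43 and 6.37 at the 8-cell stage. Mpc2 moved from 1.38, 0.108 and 1.19 to 79.5, 73.4 and 65.8 and then 51.5, 20.2 and 36.3. Both rose into the 4-cell stage, by 3.83, SE 0.36, adjusted p = 0.000147 and 5.36, SE 0.41, adjusted p = 7.36e-05. In NTC embryos Mpc2 rose from 0.496, 6.12 and 6.15 to 28, 25.2 and 40.3 RPKM (2.90, SE 0.66, adjusted p = 0.00967). NTC Mpc1 held 1.75, 0.844 and 1.27 RPKM at the 2-cell and 1.81, 0.811 and 1.31 at the 4-cell stage, groups that overlapped (0.01, SE 0.48, adjusted p = 0.987). NTM embryos lay between, with Mpc1 moving from 0.588, 0.907 and 0.97 to 6.96, 5.75 and 5.42 RPKM and Mpc2 from 2.0, 1.5 and 0.924 to 25.7, 45.6 and 33.5. Both rose (1.95, SE 0.59, adjusted p = 0.0386 and 3.84, SE 0.60, adjusted p = 0.0027).

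Transcripts of both subunits of the first enzyme of the pyruvate dehydrogenase complex rose at the same step, again with an exception in NTC. Pdha1 encodes the alpha and Pdhb the beta subunit of the first enzyme. Pdhb stood at 29.5, 13.4 and 32.4 RPKM in in vivo 2-cell and 144, 125 and 139 in in vivo 4-cell embryos, at 41, 26.8 and 37.3 and 265, 179 and 201 in NTC, and at 37.7, 20.4 and 38 and 105, 298 and 343 in NTM. It rose in each (2.48, 2.59 and 2.80). Pdha1 moved from 4.24, 0.0193 and 0.94 to 31.2, 38.5 and 65.4 RPKM in vivo, where it rose (4.33, SE 0.65, adjusted p = 0.00119), and rose in NTM (3.43, SE 0.87, adjusted p = 0.0201), while NTC libraries held 0.113, 0.65 and 12.6 and 26.6, 14.3 and 5.25 (2.24, SE 0.97, adjusted p = 0.103). Dlat, the acetyltransferase, and Dld, the dehydrogenase shared with other complexes, had no called change at this step. Dld was already at 97.3, 82.7 and 65.3 RPKM in in vivo 1-cell embryos.

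The kinases that switch the complex off declined over the same span. Pdk3 held 27.7, 19.8 and 16.8 RPKM in in vivo 1-cell embryos, 13.5, 15.3 and 30.9 at the 2-cell and 3.92, 2.62 and 1.39 at the 4-cell stage, and was listed at 0 in all in vivo, NTC and NTM morulae. It fell from the 2-cell to the 4-cell stage in vivo (-2.49, SE 0.47, adjusted p = 0.00362), in NTC (-1.99, SE 0.51, adjusted p = 0.0156) and in NTM embryos (-3.53, SE 0.86, adjusted p = 0.0173). Pdk1 stood at 8.49, 4.55 and 9.43 RPKM in in vivo 1-cell embryos and at 0, 0.015 and 0 in blastulae. Between the 1-cell and the blastula stage both kinases fell in each type, Pdk3 with -4.46 in vivo, -3.63 in NTC and -3.75 in NTM, and Pdk1 with -3.03, -2.05 and -2.81. Pdk1 fell earlier in NTM embryos, from 8.43, 7.41 and 8.22 RPKM at the 1-cell to 0, 0.915 and 1.18 at the 2-cell stage (-2.48, SE 0.57, adjusted p = 0.0308). Pdk2 and Pdk4 were near 0 in embryos. Pdk4 exceeded 1 RPKM in 1 embryo library, NTC 8-cell replicate 1, at 6.58.

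**Figure D3:**
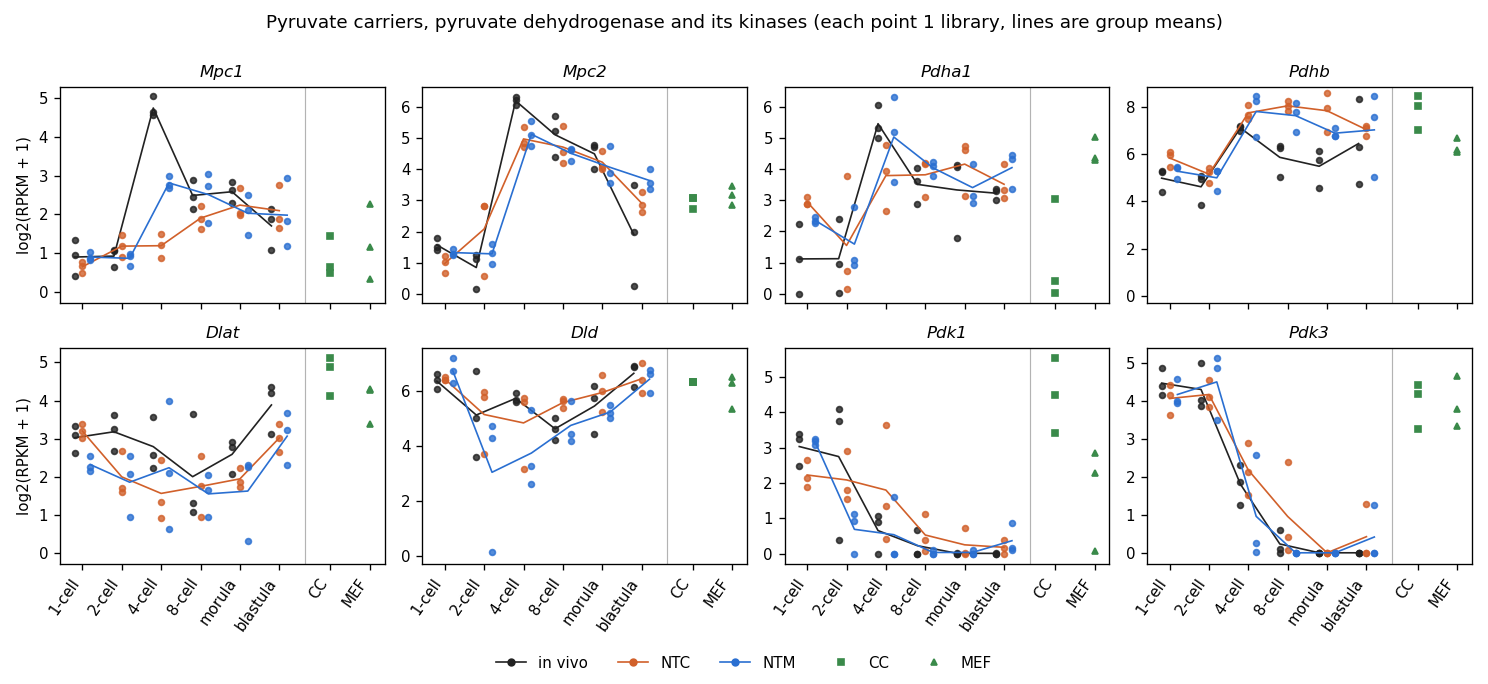
log2(RPKM + 1) of the pyruvate carriers (Mpc1, Mpc2), the pyruvate dehydrogenase complex (Pdha1, Pdhb, Dlat, Dld) and its kinases (Pdk1, Pdk3) by stage, each point 1 library, lines joining group means of in vivo (black), NTC (orange) and NTM (blue) embryos, with CC and MEF at the right. The in vivo Mpc1 points at the 4-cell stage (32.1, 22.6 and 23.8 RPKM) stand above the NTM points (6.96, 5.75 and 5.42) and the NTC points (1.81, 0.811 and 1.31), and both kinases descend to near 0.

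Lactate and pyruvate cross the cell membrane through monocarboxylate transporters. Slc16a1, encoding MCT1, was above 0 in all 54 embryo libraries, at 13, 19.9 and 13.9 RPKM in in vivo 1-cell embryos and 27.6, 13.9 and 13.7 in blastulae. Slc16a3, encoding MCT4, the exporter of glycolytic cells, stood at 164, 311 and 219 RPKM in CCs and 14.7, 11.1 and 72.9 in MEFs and did not exceed 2.88 RPKM in any embryo library. Slc16a7, encoding MCT2, was listed at 0 in all donor libraries and reached at most 1.85 RPKM in an embryo. Slc16a1 rose in NTC embryos from 1.86, 6.52 and 6.53 RPKM at the 2-cell to 13.7, 20.8 and 15.6 at the 4-cell stage (1.68, SE 0.53, adjusted p = 0.0352), the one call for the family between successive stages.

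Counted over the members, the 2-cell to 4-cell step held the most calls of any step in each embryo type. In vivo, 11 of 27 tested members rose and 7 fell, where 31.4% of all genes tested were called higher and 20.8% lower, 52.2% together. In NTC embryos 6 of 31 rose and 5 fell (all genes 16.4% and 20.1%). In NTM embryos 6 of 26 rose and 3 fell (all genes 12.1% and 14.3%), and the count was 3 without NTM 2-cell replicate 2 and 5 without NTM 4-cell replicate 3. The median member differed by 0.40 for the upper and -0.05 for the lower glycolytic steps in vivo, and all tested genes by 0.36.

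From the 4-cell to the 8-cell stage in vivo, 0 members rose and 16 of 24 fell, with Aldoa, Eno1, Mpc1 and Pkm the largest (-4.52, -2.95, -2.26 and -2.25). The whole table moved the same way, with 4.4% called higher, 39.3% lower (43.7% together) and a median gene at -1.05. The mitochondrial share moved with it, as given above, and on nuclear reads alone 11 members were called. With median-ratio scaling, which put the median gene at -0.18, 4 were called, 1 higher and 3 lower, and Ldhb, Pdhb, Mpc2 and Dld changed sign. The same step had 0 member calls in NTC (4 of 32 at an unadjusted limma p under 0.05; all genes 0% higher and 0.0564% lower) and in NTM embryos (2 of 25; all genes 0.176% and 0.187%).

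Other steps held few calls. Shares of all genes in this paragraph are of genes called, and not of genes at an unadjusted p. Between the 1-cell and 2-cell stages limma called 0 of 24 members in vivo (1 at an unadjusted p under 0.05; all genes 0%), 4 of 27 higher and 0 lower in NTC (all genes 4.53% and 8.95%) and 1 of 23 higher and 2 lower in NTM embryos (all genes 2.72% and 6.68%, 9.4% together). The NTC members were Gapdh, Ldha, Pgam1 and Pfkfb3 (3.22, 2.54, 1.85 and 1.47), and 1 was called without NTC 1-cell replicate 2 or 3. The NTM split was 2 higher and 0 lower with median-ratio scaling, 1 member was called without any one NTM 1-cell library, and 5 without NTM 2-cell replicate 1. From the 8-cell stage to the morula limma called 0 members in every type (at an unadjusted p under 0.05, 2 of 19 in vivo, then 1 of 30 for NTC and 2 of 21 for NTM; all genes 0.0116%, 0% and 0%). From the morula to the blastula it called 0 of 22 in vivo (8 at an unadjusted p under 0.05; all genes 0.801%, and 0.452% lower) and 1 without in vivo blastula replicate 1, Gapdh and Tpi1 higher in NTC (2 of 26; all genes 4.54% higher and 7.16% in either direction), where the count was 1 without any one library, and Gapdh alone in NTM embryos (1 of 24; all genes 3.73% higher). The NTM count was 5 without NTM blastula replicate 3 and 2 without NTM morula replicate 3.

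Over the whole span from the 1-cell to the blastula stage, 4 of 21 members rose and 3 fell in vivo (all genes 9.34% higher and 25.4% lower), 6 of 27 rose and 5 fell in NTC (all genes 24.5% and 38.7%, 63.1% together), and 8 of 26 rose and 5 fell in NTM embryos (all genes 26.1% and 31.1%). Besides the genes described, Pgam1 rose in each, by 4.57, 3.74 and 4.20. Gapdh rose in NTC (4.66) and NTM embryos (4.74), and its in vivo difference was 2.71, SE 0.87, adjusted p = 0.0532 and did not pass. Tpi1 (2.33) and Pdha1 (2.11) rose in vivo, and Mpc2 rose in NTC (1.94) and NTM (2.32). Pfkp fell in both (-1.04 and -1.71), Pfkfb1 in NTC (-1.90) and Pgk1 in NTM (-2.05).

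NT embryos were compared with in vivo embryos of the same stage to see which members differ after nuclear transfer. NTC and NTM were each set against the same in vivo libraries, so both comparisons share those values. The 4-cell stage held the most calls. In NTC 4-cell embryos 3 of 27 members were higher and 6 lower (all genes 7.4% higher and 20.4% lower), and in NTM 4-cell embryos 1 of 26 was higher and 3 lower (all genes 3.33% and 17.8%). For Mpc1 the difference was -3.56, SE 0.39, adjusted p = 0.000295 in NTC and -1.94, SE 0.43, adjusted p = 0.0176 in NTM, for Aldoa -2.47, SE 0.57, adjusted p = 0.0119 and -2.20, SE 0.49, adjusted p = 0.0176, and for Eno1 -2.18, SE 0.49, adjusted p = 0.0106 and -2.31, SE 0.57, adjusted p = 0.0249. Eno1 held 0.214, 1.88 and 0.598 RPKM in NTC and 0.438, 0.0381 and 1.84 in NTM 4-cell embryos, all below the in vivo libraries. Hk1 (-2.09, SE 0.43, adjusted p = 0.00712), Tpi1 (-2.06, SE 0.43, adjusted p = 0.00758) and Mpc2 (-1.22, SE 0.29, adjusted p = 0.0135) were called in NTC. In NTM their differences were -1.66, SE 0.55, adjusted p = 0.0666 for Hk1, -1.62, SE 0.72, adjusted p = 0.149 for Tpi1 and -1.08, SE 0.38, adjusted p = 0.0776 for Mpc2.

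Higher in NT 4-cell embryos was Gapdh, at 30.1, 117 and 50.8 RPKM in NTC and 124, 23.7 and 126 in NTM against 11.8, 11.3 and 10.1 in vivo. The groups did not overlap, and the differences were 2.26, SE 0.47, adjusted p = 0.008 and 2.61, SE 0.67, adjusted p = 0.029. Ldha (1.83, SE 0.47, adjusted p = 0.0188) and Pfkfb4 (1.90, SE 0.53, adjusted p = 0.0269) were called higher in NTC, and the NTM differences were 1.41, SE 1.30, adjusted p = 0.46 and 0.87, SE 0.72, adjusted p = 0.418. Pkm and Pdhb differed by 0.35, SE 0.52, adjusted p = 0.644 and 0.64, SE 0.23, adjusted p = 0.0735 in NTC and did not pass. The cumulus marker list summed to 14.2 to 19.2 RPKM in in vivo, 5.37 to 60.1 in NTC and 6.49 to 56 in NTM 4-cell libraries, where 8, 6 and 9 of the 12 genes were listed at 0 in all 3 libraries of the group. Has2, Inhba, Cyp11a1 and Fshr were at 0 in all 9 libraries, and Has2 was at 0 in CCs too. MEF markers summed to 0.591 to 1.42, 0 to 2.1 and 0.198 to 22.4 RPKM, with 4, 10 and 6 of the 13 genes at 0 in all 3 libraries and Thy1, Twist1 and Pdgfrb at 0 in all 9. The 2-cell activation markers summed to 912 to 1000 RPKM in in vivo, 153 to 220 in NTC and 75 to 276 in NTM 4-cell libraries. In each group 2 of the 8 genes were above 1 RPKM in all 3 libraries. The part of these transcripts, or of a difference in developmental timing, in the differences was not tested.

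The mitochondrial share was also higher in both NT 4-cell groups than in vivo, by the ranges given above. On nuclear reads alone 10 NTC members were called, 5 higher and 5 lower. The NTC count was 5 without in vivo 4-cell replicate 2, and with median-ratio scaling it split into 5 higher and 5 lower, where the median gene moved from -0.39 to -0.04. The NTM count was 0 without any one of the in vivo 4-cell libraries, 7 without NTM 4-cell replicate 3, 1 (higher) with median-ratio scaling and 1 on nuclear reads alone.

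**Figure D4:**
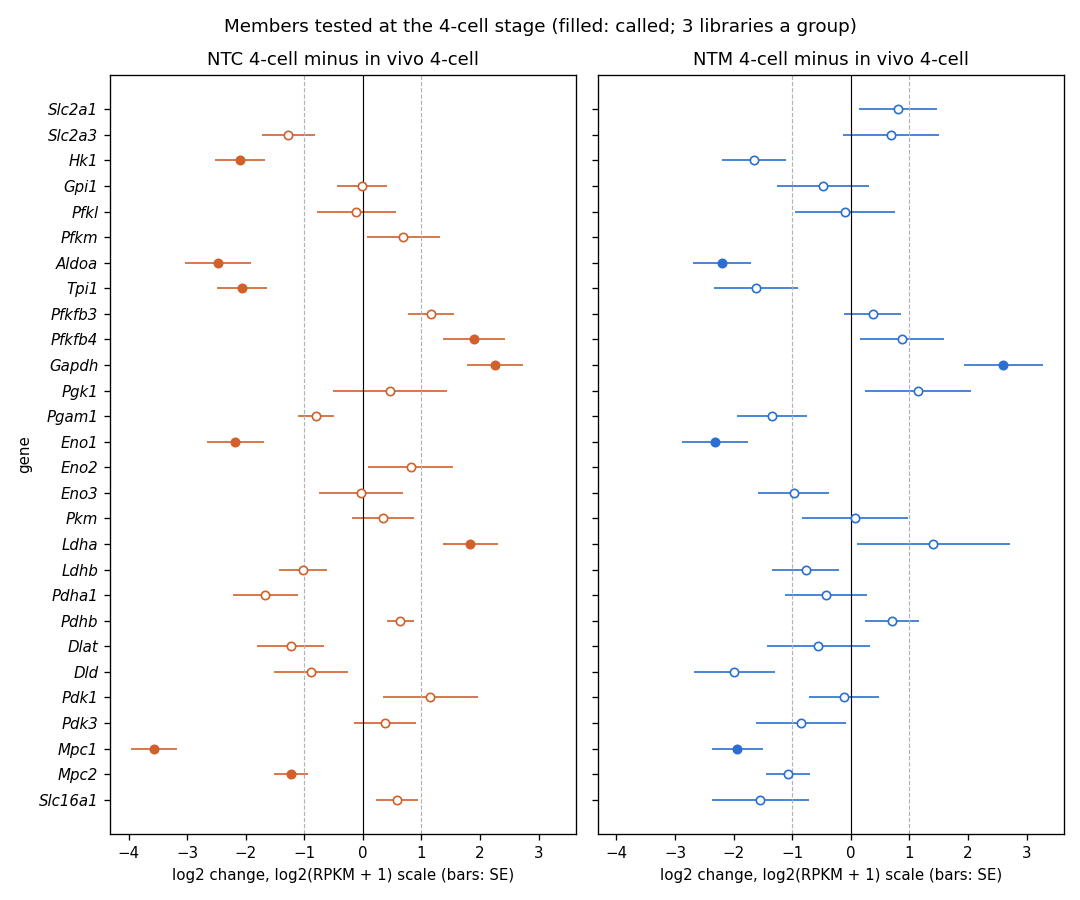
log2 difference of each tested member at the 4-cell stage, NTC minus in vivo at the left and NTM minus in vivo at the right, on the log2(RPKM + 1) scale with bars of 1 SE, filled where called and open where not, and dashed lines at a difference of 1 in size. Mpc1, Aldoa and Eno1 lie to the left in both panels, at -3.56, -2.47 and -2.18 in NTC, and Gapdh lies to the right, at 2.26 and 2.61.

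Gapdh was also called at the 2-cell and 8-cell stages in NTC. At the 2-cell stage it held 245, 147 and 189.8 RPKM in NTC and 161, 60.0 and 149.9 in NTM against 32.2, 21.8 and 20.4 in vivo. All NT libraries were above all in vivo libraries. It was the one member called in NTC 2-cell embryos (2.92, SE 0.42, adjusted p = 0.0276; 1 of 27, all genes 0.135% higher), a call lost without any one library other than in vivo 2-cell replicate 3, and the count was 2 without that one. In NTM it did not pass (2.18, SE 0.56, adjusted p = 0.168), and limma called 0 of 24 members (1 at an unadjusted p under 0.05; all genes 0.141%).

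At the 8-cell stage Gapdh held 3.47, 1.11 and 14.1 RPKM in vivo, 183, 25.9 and 253 in NTC and 27.3, 82 and 20.4 in NTM. In NTC 8-cell embryos Gapdh (4.37, SE 0.89, adjusted p = 0.0402) and Pdhb (2.17, SE 0.42, adjusted p = 0.0353) were called (2 of 28; all genes 0.882% higher), and neither was called without any one library or with median-ratio scaling. Pdhb stood at 31.1, 74.3 and 79.5 RPKM in vivo and 261, 227 and 300.2 in NTC 8-cell embryos. In NTM 8-cell embryos Slc2a3 was called (2.10, SE 0.46, adjusted p = 0.0469; 1 of 22, all genes 1.2% higher), with 17.7, 21.1 and 14.5 RPKM against 3.59, 4.21 and 2.4 in vivo. That call was lost without any one library and with median-ratio scaling, and without in vivo 8-cell replicate 3 another member was the 1 called. Pkm at this stage differed by 2.76, SE 0.82, adjusted p = 0.108 in NTC and did not pass.

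No member was called between NT and in vivo embryos at the 1-cell, morula or blastula stage. The shares of all genes given here are of genes called, and cannot be set against member counts at an unadjusted p. At the 1-cell stage limma gave 0 of 23 in NTC (8 at an unadjusted p under 0.05; all genes 1.16%) and 0 of 22 in NTM (3; all genes 1.28%), and 3 in NTC without in vivo 1-cell replicate 1. In morulae it gave 0 of 23 in NTC (9 at an unadjusted p under 0.05; all genes 0.0321%) and 0 of 22 in NTM (3; all genes 0.168%). Gapdh in NTC morulae stood at 4.22, SE 0.79, adjusted p = 0.0856. In blastulae it gave 0 of 22 in NTC (1 at an unadjusted p under 0.05) and 0 of 22 in NTM (2), where all genes held 8.81% called higher in NTC and 0.565% in NTM. Gapdh and Pkm differed there by 1.14 and 0.53 in NTC and by 0.24 and -0.39 in NTM, none of which passed. NTC Pkm libraries lay just above the in vivo ones, and the other 3 pairs of groups overlapped. Without NTM blastula replicate 3, 1 NTM member was called.

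The change from stage to stage was compared between NT and in vivo embryos as the difference of their log2 differences. At the 2-cell to 4-cell step 1 of 29 members moved more upward and 7 more downward in NTC than in vivo (all genes 2.38% and 12%), and the count was 4 without in vivo 4-cell replicate 2 and 5 without in vivo 2-cell or 4-cell replicate 1. The largest was Aldoa (-4.43, SE 0.97, adjusted p = 0.00896), followed by Mpc1 (-3.82), Hk1 (-3.30) and Pgam1 (-2.88). In NTM Aldoa alone was called (-3.93, SE 0.90, adjusted p = 0.016; 1 of 27, all genes 8.05% lower), and the count was 4 without NTM 4-cell replicate 3, 3 without in vivo 2-cell replicate 2 and 2 without NTM 2-cell replicate 3. At the 4-cell to 8-cell step 8 of 29 members moved more upward in NTC (all genes 17%) and 5 of 24 in NTM than in vivo (all genes 16.5%). With median-ratio scaling 3 and 2 were called. The NTM count lay between 2 and 6 with 1 library left out, and was 2 without in vivo 4-cell replicate 2 or 3, in vivo 8-cell replicate 1 or 2, NTM 4-cell replicate 2 or NTM 8-cell replicate 2, and 3 without in vivo or NTM 8-cell replicate 3. From the morula to the blastula limma called 0 of 23 in NTC (3 at an unadjusted p under 0.05; all genes 0.236%) and 0 of 24 in NTM (2; all genes 0.647%).

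NTM and NTC embryos, which differ in donor cell type, differed at the 1-cell stage. In NTM against NTC 1-cell embryos 0 of 25 members were higher and 2 lower (all genes 5.64% and 14.2%). Pkm stood at 15.6, 21.9 and 15.5 RPKM in NTM and 57.2, 49.5 and 48.7 in NTC (-1.51, SE 0.22, adjusted p = 0.00232), and Aldoa at 6.04, 6.71 and 7.5 and 18.3, 14 and 13.8 (-1.07, SE 0.25, adjusted p = 0.0177). Neither pair of groups overlapped. With median-ratio scaling the split was 2 higher and 1 lower, and the count was 1 without NTC 1-cell replicate 3 and 6 without NTM 1-cell replicate 2. At the other 5 stages limma called 0 members, with 1 of 27, 1 of 28, 1 of 31, 8 of 24 and 3 of 25 at an unadjusted p under 0.05 from the 2-cell stage to the blastula. In all genes 0%, 0%, 0.0507%, 0% and 0% were called, and their share at an unadjusted p was not counted.

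MEFs and CCs themselves differed in 7 of 35 members, all lower in MEFs (all genes 3.99% higher and 2.3% lower). Pfkp (-3.87, SE 0.58, adjusted p = 0.00527), Slc16a3 (-3.22, SE 0.67, adjusted p = 0.0238), Tpi1 (-2.14, SE 0.29, adjusted p = 0.00313) and Pgam1 (-1.75, SE 0.34, adjusted p = 0.0185) led, followed by Pfkl, Ldha and Gapdh (-1.62, -1.37 and -1.26). Tpi1 stood at 409, 465 and 426 RPKM in CCs and 99.6, 73.3 and 126 in MEFs, and Gapdh at 2036, 2063 and 1984 and 849, 716 and 990.1, without overlap. Pkm differed by -0.996 (SE 0.25, adjusted p = 0.0506) and did not pass. Without MEF replicate 1 or replicate 2 the count was 3.

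Against their own donor cells, 1-cell NT embryos were lower in most of the pathway. In NTC 1-cell embryos against CCs 2 of 34 members were higher and 19 lower (all genes 29.3% and 20.8%), and in NTM 1-cell embryos against MEFs 1 of 31 was higher and 18 lower (all genes 25.2% and 29.9%). Ldha was the lowest member in both, at -8.81, SE 0.73, adjusted p = 0.000236 and -8.78, SE 0.25, adjusted p = 3.34e-06, and Ldhb highest, at 6.11, SE 1.21, adjusted p = 0.00743 and 7.74, SE 0.28, adjusted p = 4.81e-06. Next lowest in NTC were Slc16a3 (-7.62), Pgam1 (-6.90) and Pfkl (-6.66), and in NTM Gapdh (-6.36), Eno1 (-5.70) and Pgam1 (-5.65). Gapdh differed by -6.63 in NTC, and Pkm by -4.97 in NTC and -5.49 in NTM. Pfkfb1 was the other member that was higher in NTC (1.90). A 1-cell embryo is mostly egg cytoplasm, so this comparison sets a maternal transcript pool beside a somatic one.

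At the blastula 1 of 34 members was higher and 18 lower in NTC than in CCs (all genes 9.92% and 14.3%), and 1 of 33 higher and 18 lower in NTM than in MEFs (all genes 11% and 19.8%). Slc2a3 was the member that was higher, at 5.39, SE 0.50, adjusted p = 0.000539 and 5.11, SE 0.65, adjusted p = 0.000779. Ldha (-8.51 and -7.56) and Eno1 (-6.56 and -5.68) were among the lowest, with Slc16a3 (-7.39) and Pfkl (-5.80) in NTC and Pkm (-5.59) and Pgk1 (-5.08) in NTM. Gapdh lay closer, at -1.98 and -1.62.

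The balance within an isozyme pair was taken in each library as log2((A + 1)/(B + 1)) and compared between 6 NT and 3 in vivo libraries of a stage by a two-sided exact permutation test. Of 24 exact permutation tests over 4 pairs and 6 stages, 4 reached p = 0.0119, the smallest that 84 arrangements allow, and the lowest adjusted p was 0.0714, so 0 passed. A single test at this smallest p could not pass adjustment over 24 tests, so the lack of a call does not show equal balances. For Ldha/Ldhb at the 8-cell stage the balance ran from -3.48 to -2.86 in the in vivo libraries and from -1.12 to 2.61 in the NT libraries, a difference of 3.34. In the blastula it ran from -1.96 to 0.00 in the in vivo libraries and from 0.13 to 1.68 in the NT libraries, a difference of 1.67, which was 1.04 without in vivo replicate 1. Hk1/Hk2 at the 4-cell stage ran from 1.55 to 2.03 in the in vivo libraries and from -1.22 to 0.31 in the NT libraries, a difference of -2.22, and Slc2a1/Slc2a3 at the 1-cell stage from 0.38 to 4.12 in the in vivo libraries and from 4.24 to 5.94 in the NT libraries, a difference of 2.05, which was 0.817 without in vivo replicate 1. The groups did not overlap in these 4 tests, and each rests partly on values at or near 0.

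Neighbouring pathways were counted from lists of their own. Of the 16 genes of the tricarboxylic acid cycle, 7 rose and 3 fell from the 2-cell to the 4-cell stage in vivo, where all genes held 31.4% higher and 20.8% lower, with Mdh2, the malate dehydrogenase of mitochondria, at 5.62 and Idh3b, a subunit of isocitrate dehydrogenase, at 5.58. In NTC 4-cell embryos 7 of the 16 were lower than in vivo and 0 higher, with Sdhb of succinate dehydrogenase at -3.19 and Idh3b at -2.77, and in NTM 4 were lower, with Sdhb at -4.04 and Cs, citrate synthase, at -2.54. Of 29 further relatives of the pathway, 19 were tested from the 2-cell to the 4-cell stage in vivo, and 9 rose and 4 fell, beside the same shares of all genes. Pdp2, the phosphatase that reactivates pyruvate dehydrogenase, rose (6.39), and Bpgm, bisphosphoglycerate mutase, fell (-5.91). In NTC 4-cell embryos 6 of 15 tested relatives were lower than in vivo and 0 higher, led by Pdhx (-3.69), a binding component of the pyruvate dehydrogenase complex, and Pgam2 (-3.35), the muscle-type phosphoglycerate mutase. In NTM 6 of 16 were lower, with Pdhx at -3.97 and Pgam2 at -3.69. These shares stand beside the 20.4% and 17.8% of all genes called lower.

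Of the 7 pentose phosphate genes, 3 rose and 2 fell from the 2-cell to the 4-cell stage in vivo (all genes 31.4% and 20.8%). G6pdx, the first enzyme of that branch, fell (-5.27) and Pgd, the third, rose (4.47). In NTC 4-cell embryos Pgd alone of the 7 was lower than in vivo (-3.13), and likewise in NTM (-2.55). Of the 10 oxygen and Myc regulators, 6 were tested at the in vivo 2-cell to 4-cell step, and 3 rose and 2 fell, beside the same shares of all genes. Vhl, which marks hypoxia-inducible factors for destruction, rose (5.70), as did Myc (5.33), a transcription factor of growth. Myc was lower in NTC than in in vivo 4-cell embryos (-4.72) and Egln1, the main oxygen-sensing prolyl hydroxylase, was higher (1.68). Epas1, which encodes the hypoxia-inducible factor HIF2A, was the one regulator called in NTM, where it was higher (4.07).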

How the data were processed

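Single embryos and donor cells were lysed, cDNA was tailed with poly(A) and amplified for 18 to 20 cycles, and libraries were sequenced without molecular identifiers, so counting error understates technical error. The authors deposited 1 table of RPKM values per gene for all 60 libraries. Their methods describe removal of adapters and redundant reads, mapping with TopHat and Bowtie2 and counting with HTSeq, whereas the submitters' processing notes name Bowtie 0.12.2 and the build mm8. The handling of reads with several matches is not given in the sources used here. Removal of redundant reads can lower the level of abundant short transcripts, and values at 0 can be missed transcripts.

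Groups were taken from the sample labels, and nothing ties embryos to experiments, so p-values measure the spread between the 3 libraries. Low RPKM steps were matched to whole reads: 99.99% of values were whole within 0.05 of a read with transcript lengths matched for 20706 genes, which gave 5294167 to 47830132 reads per library (median 15451428). These reads gave the depth and no test. limma 3.58.1 in R 4.3.3 (moderated linear models with a mean-variance trend) was run on log2(RPKM + 1) for 41 comparisons between groups and 6 differences of differences, on genes with a mean of at least 0.5 RPKM in the libraries compared, with Benjamini-Hochberg adjustment over all genes tested, and was tested on simulated data. Only libraries of the groups compared entered a fit. Calls needed an adjusted p under 0.05 and a log2 difference of at least 1. Isozyme balances used exact permutation tests that went through all arrangements of the libraries, in Python 3.11.15 with numpy 2.4.6. Ensembl identifiers were matched to symbols for 27013 of 27238 genes. The members, marker lists and other pathway lists were chosen with earlier results of these data known. In each comparison the called members with the largest changes (up to 4 in each direction), the 4 isozyme pairs, Gapdh and Pkm were to be named, and of other lists up to 2 called genes. The isozyme pairs, Gapdh and Pkm are given by level throughout and by test in part of the comparisons. Members outside that rule were chosen to account for each role. Alternatives were median-ratio scaling, nuclear reads only, all genes unfiltered, a pseudocount of 0.1, 1 fit over all 20 groups, the replicate number as a block, no fold threshold, and leaving out each library, which for the isozyme balances was added after seeing the data.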

Additional observations from a re-analysis of the deposited data

Results flagged for a closer look

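For the members below, the change from 1 stage to the next differed between NT and in vivo embryos. Each was called by limma in a test of the difference of the log2 differences itself, at an adjusted p under 0.05 and a size of at least 1. NTC and NTM were set against the same in vivo libraries, and successive steps share the 4-cell libraries, so the values are not independent of each other. A negative value means that NT embryos moved less upward or more downward than in vivo embryos on the log2(RPKM + 1) scale.

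From the 2-cell to the 4-cell stage, NTC minus in vivo was -1.82 for the glucose transporter Slc2a3, -3.30 for Hk1, -4.43 for Aldoa, -2.01 for Tpi1, -2.88 for Pgam1, -2.85 for Eno1 and -3.82 for the pyruvate carrier Mpc1. Pfkfb4 was the one positive value, at 1.96. In NTM the value for Aldoa was -3.93.

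From the 4-cell to the 8-cell stage, NTC minus in vivo was 2.23 for Slc2a3, 3.14 for Hk1, 4.92 for Aldoa, 2.43 for Tpi1, 1.81 for Pgam1, 3.37 for Eno1, 1.54 for Pdhb and 2.98 for Mpc1. NTM minus in vivo was 2.02 for Hk1, 3.64 for Aldoa, 2.65 for Pgam1, 2.85 for Eno1 and 1.96 for Mpc1. At this step the mitochondrial share of reads was 5.68 to 8.87% in 4-cell and 32.1 to 45% in 8-cell embryos in vivo. It was 31.6 to 34.7% and 32.4 to 41.3% in NTC, and 29.6 to 40.4% and 37.8 to 46.2% in NTM embryos. On nuclear reads alone 4 members were called in NTC and 2 in NTM at this step.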

How the results depend on the processing

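Over 221 called values of single members, the direction was kept in every fit with 1 library left out (1149 of 1455 such values stayed called and 306 did not). Median-ratio scaling kept 182 called, a fit without the filter on low values 179, nuclear reads only 199, 1 fit over all 20 groups 189, a pseudocount of 0.1 210 and the replicate block 189. The direction changed for 4, all in vivo from the 4-cell to the 8-cell stage with median-ratio scaling, where the log2 difference became 0.29 for Dld, 0.17 for Pdhb, 0.31 for Mpc2 and 0.050 for Ldhb. Same-numbered libraries did not deviate together (all 3 correlations over 0.1 in 0 of 41 comparisons, range -0.205 to 0.119), so replicate numbers were not taken as pairs. The numbers of called members below moved by over 1.5 times, and the cause was not tested. With a pseudocount of 0.1 the count went from 0 to 1 for NTM blastula against in vivo blastula, from 1 to 0 for NTM 8-cell against in vivo 8-cell and from 4 to 2 for NTC 1-cell to 2-cell. Without the filter on low values the count went from 1 to 0 for NTM morula to blastula, NTC 2-cell against in vivo 2-cell and NTM 8-cell against in vivo 8-cell, from 1 to 2 for the NTM minus in vivo difference of the 2-cell to 4-cell step, from 2 to 0 for NTC 8-cell against in vivo 8-cell, from 2 to 1 for NTC morula to blastula, from 3 to 1 for NTM 1-cell to 2-cell, from 4 to 2 for NTC 1-cell to 2-cell and NTM 4-cell against in vivo 4-cell, from 5 to 3 for the NTM minus in vivo difference of the 4-cell to 8-cell step and from 7 to 2 for MEF against CC. With median-ratio scaling the count went from 0 to 1 for in vivo morula to blastula and NTC morula against in vivo morula, from 1 to 0 for NTM 8-cell against in vivo 8-cell, from 2 to 0 for NTC 8-cell against in vivo 8-cell, from 4 to 1 for NTM 4-cell against in vivo 4-cell, from 5 to 2 for the NTM minus in vivo difference of the 4-cell to 8-cell step, from 8 to 3 for the NTC minus in vivo difference of the 4-cell to 8-cell step and from 16 to 4 for in vivo 4-cell to 8-cell. On nuclear reads only the count went from 0 to 1 for in vivo morula to blastula and NTC morula against in vivo morula, from 4 to 1 for NTM 4-cell against in vivo 4-cell, from 5 to 2 for the NTM minus in vivo difference of the 4-cell to 8-cell step and from 8 to 4 for the NTC minus in vivo difference of the 4-cell to 8-cell step. In 1 fit over all 20 groups, which share 1 estimate of the spread, the count went from 0 to 1 for NTC blastula against in vivo blastula, NTM 1-cell against in vivo 1-cell, NTM blastula against in vivo blastula and NTM 4-cell against NTC 4-cell, from 0 to 2 for in vivo 1-cell to 2-cell, NTM 4-cell to 8-cell and NTC 1-cell against in vivo 1-cell, from 0 to 3 for NTC 4-cell to 8-cell and NTM 2-cell against in vivo 2-cell, from 0 to 4 for NTC morula against in vivo morula, from 0 to 7 for in vivo morula to blastula, from 1 to 2 for NTM morula to blastula and NTM 8-cell against in vivo 8-cell, from 1 to 5 for NTC 2-cell against in vivo 2-cell and the NTM minus in vivo difference of the 2-cell to 4-cell step, from 2 to 0 for NTM 1-cell against NTC 1-cell, from 2 to 1 for NTC morula to blastula, from 2 to 6 for NTC 8-cell against in vivo 8-cell, from 4 to 7 for NTM 4-cell against in vivo 4-cell, from 7 to 13 for MEF against CC and from 16 to 10 for in vivo 4-cell to 8-cell. With the replicate number as a block (replicate block) the count went from 0 to 1 for in vivo morula to blastula, from 1 to 2 for NTM morula to blastula, from 2 to 1 for NTC morula to blastula, from 4 to 2 for NTM 4-cell against in vivo 4-cell, from 5 to 3 for the NTM minus in vivo difference of the 4-cell to 8-cell step and from 8 to 5 for the NTC minus in vivo difference of the 2-cell to 4-cell step. Without the fold threshold the count went from 2 to 4 for NTM 1-cell against NTC 1-cell.

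With 1 library left out, the counts lay between 0 and 1 for in vivo morula to blastula, NTM 8-cell against in vivo 8-cell and NTM blastula against in vivo blastula, 0 and 2 for NTC 2-cell against in vivo 2-cell, 0 and 3 for NTC 1-cell against in vivo 1-cell, 0 and 5 for NTM morula to blastula, 0 and 7 for NTM 4-cell against in vivo 4-cell, 1 and 1 for NTC morula to blastula, 1 and 4 for the NTM minus in vivo difference of the 2-cell to 4-cell step, 1 and 5 for NTM 1-cell to 2-cell, 1 and 6 for NTC 1-cell to 2-cell and NTM 1-cell against NTC 1-cell, 2 and 6 for the NTM minus in vivo difference of the 4-cell to 8-cell step, 3 and 6 for MEF against CC, 3 and 7 for NTM 2-cell to 4-cell, 4 and 7 for the NTC minus in vivo difference of the 2-cell to 4-cell step, 5 and 7 for in vivo 1-cell to blastula, 5 and 9 for NTC 4-cell against in vivo 4-cell, 6 and 11 for the NTC minus in vivo difference of the 4-cell to 8-cell step, 8 and 9 for NTC 2-cell to 4-cell, 9 and 15 for NTM 1-cell to blastula, 11 and 13 for NTC 1-cell to blastula, 11 and 16 for in vivo 4-cell to 8-cell, 13 and 19 for in vivo 2-cell to 4-cell, 14 and 19 for NTM blastula against MEF, 16 and 21 for NTC blastula against CC, 18 and 22 for NTM 1-cell against MEF and 18 and 24 for NTC 1-cell against CC, and at 0 throughout for the other 19. No isozyme balance passed under any setting run (0 throughout, also with 1 replicate number or, added after seeing the data, 1 library left out in turn). With 1 replicate number left out, or with NTC or NTM alone, the arrangements were too few for an exact p under 0.05. Those settings could not have passed and say nothing about stability. In the other settings a test at its smallest p could pass only if several others also lay that low. Their lack of calls therefore says little about stability. The lowest adjusted exact permutation p was 0.0952 with a pseudocount of 0.1 and 0.0857 with a library left out. At 3 libraries a group, and 3 reads on 2000 nt worth up to 0.283 RPKM, differences among genes near 0 were not detectable.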

Other observations

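Genes around the pathway also changed between the 1-cell and the blastula stage. Bpgm, which makes 2,3-bisphosphoglycerate, fell in each embryo type (-8.66 in vivo, -6.21 in NTC and -7.13 in NTM). Fbp1, the gluconeogenic fructose bisphosphatase, also fell in each, with -5.16 in vivo, -4.96 for NTC and -3.88 for NTM. Bsg, the membrane partner that brings MCT1 and MCT4 to the cell surface, rose in each, with 3.17 in vivo, 2.18 for NTC and 4.26 for NTM. Of 14 relatives tested in vivo, 2 rose and 4 fell (all genes 9.34% and 25.4%), of 18 in NTC 6 rose and 10 fell (all genes 24.5% and 38.7%), and of 14 in NTM embryos 6 rose and 7 fell (all genes 26.1% and 31.1%). Of the 16 tricarboxylic acid cycle genes, 4 rose and 4 fell in vivo, 6 rose and 2 fell in NTC and 7 rose and 1 fell in NTM, beside the same shares, with Mdh2 at 4.72, 4.51 and 5.18.

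At the blastula, Epas1 was the one gene of the pathway lists called between NTC and in vivo embryos (3.95, limma).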
